A study of Mus musculus with 20 samples.

Results

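Il15, Il15ra, Il7 and Il18bp encode interleukin 15, the alpha chain of its receptor, interleukin 7 and the interleukin 18 binding protein. Their 4 rows were taken by mouse Ensembl gene ID (ENSMUSG00000031712, ENSMUSG00000023206, ENSMUSG00000040329 and ENSMUSG00000070427) from a count table of 55891 gene IDs. All 4 genes passed the filter on low counts and were tested. RNA was sequenced from cultured primary mouse renal tubular epithelial cells in 20 libraries, 5 in each of 4 groups. The groups were Ptprz1 knockout (KO) cells with LPS at 100 ng/mL and IFNγ (IFNy in the labels) at 10 ng/mL for 24 h, untreated KO control cells, heterozygous (het) cells with the same stimulation, and untreated het control cells. All came from the strain B6.129-Ptprz1tm1Nmo, so every group carried the targeted allele on at least 1 chromosome and wild-type cells were not analysed here. Ptprz1 codes for a tyrosine phosphatase that spans the cell membrane. LPS is a bacterial lipid that activates Toll-like receptor 4, and IFNγ is a lymphocyte cytokine that signals through JAK kinases. The labels give 10 animal numbers, of which 5 and 7 stand under both genotypes.

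Interleukin 15 and interleukin 7 are cytokines that keep lymphocytes alive and dividing, and both signal through the common gamma chain, JAK1, JAK3 and STAT5. Interleukin 15 is usually bound by its alpha chain inside the cell that makes it and is presented on that cell's surface to natural killer and memory CD8 T cells. Interleukin 7, made mainly by stromal and epithelial cells, acts on developing and naive lymphocytes. Interleukin 18 is made as an inactive precursor that caspase-1 cleaves, it induces IFNγ in lymphocytes, and the secreted interleukin 18 binding protein blocks it. Tubular epithelium of the kidney is known as a source of interleukin 15 and of interleukin 18.

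Promoter sequence was sought for all 4 genes, because the stimulus acts through factors that bind short DNA elements. RefSeq windows (GRCm38.p6) were found for 2 of the 4 genes, with 2 alternative starts for Il15ra and 1 for Il18bp. The 250 bases before each start are given 5′ to 3′ on the gene's strand, together with 30 bases after the second Il15ra start. Capitals mark a match to GAAANNGAA, the core of an interferon-stimulated response element without its last base.
Il15ra, first start, chr2:11705043-11705292 (+): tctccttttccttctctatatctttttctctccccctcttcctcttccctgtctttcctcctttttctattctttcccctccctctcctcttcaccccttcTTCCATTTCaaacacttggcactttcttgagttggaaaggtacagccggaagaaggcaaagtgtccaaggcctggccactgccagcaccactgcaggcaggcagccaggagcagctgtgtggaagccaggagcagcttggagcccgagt
Il15ra, second start, chr2:11705462-11705711 (+): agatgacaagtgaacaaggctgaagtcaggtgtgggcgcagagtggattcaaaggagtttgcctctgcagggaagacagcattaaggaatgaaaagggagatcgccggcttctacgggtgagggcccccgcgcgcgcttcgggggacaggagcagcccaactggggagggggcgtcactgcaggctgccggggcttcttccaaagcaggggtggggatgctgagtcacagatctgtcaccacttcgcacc
Il15ra, bases 21 to 50 after the second start, chr2:11705732-11705761 (+): aagcaaaagcGAAAGCGAAtactccttagc
Il18bp, chr7:102018233-102018482 (-): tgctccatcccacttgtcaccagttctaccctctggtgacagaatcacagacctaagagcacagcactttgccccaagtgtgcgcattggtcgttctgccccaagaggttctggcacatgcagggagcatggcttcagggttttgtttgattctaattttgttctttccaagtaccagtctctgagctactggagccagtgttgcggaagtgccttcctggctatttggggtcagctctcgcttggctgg
GAAANNGAA was searched on both strands of each whole window (250 bases before to 50 after the start). It lay on the minus strand from base -149 of the first Il15ra start and on the plus strand from base 31 of the second. The full core of the element has a further A, and the next base was G at the first match and T at the second. Of 32851 windows of the same length 8.56% hold it. The NF-kB-type element GGGANNTTC (3.94% of windows), also short of its last C, lay on the minus strand from base 40 of the first Il15ra start, with T as the next base. These matches did not overlap each other. Both shorter forms were chosen after the sequences were seen. A match is a string of letters and was not tied to any measurement of binding.

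Library totals ran from 12899528 to 20411411 counts. Genes that IFNγ and LPS induce went against the stimulation label in 4 libraries, both of animal 8 (KO replicate 4) and both of animal 4 (het replicate 5). Nos2, the inducible nitric oxide synthase, had 1255 to 3564 CPM (counts scaled to a common library size, with TMM factors) in the other 8 stimulated libraries and at most 0.219 CPM in the other 8 controls. It had 0 counts in the libraries labelled stimulated of those animals and 82.8 and 202 CPM in those labelled control, and Gbp2 and Tap1 showed the same pattern. The values of the 4 genes are therefore given with all 20 libraries as labelled and with the 16 that followed their label. The 16 were chosen by genes of the same response, so they are not independent evidence of it. Ptprz1 had 0 counts in 11 libraries and at most 7 in any, so it did not check the genotype labels.

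The labelled cell type was checked too. The epithelial cadherin gene Cdh1 stood at 0.365 to 1.72 CPM in the 6 libraries of animals 2, 6 and 10 and at 18.8 to 200.5 CPM in the other 14. It is 1 of 12 tubular markers, and not all of them fell so low in any library. The lowest values over the 20 libraries were 134 CPM for Pax8, 41.8 for Pax2, 22.9 for Cdh16, 22.0 for Havcr1 and 18.0 for Lrp2. They were 5.60 for Krt18, 2.41 for Cubn, 1.13 for Krt8, 0.146 for Epcam and 0 for Slc34a1 and Aqp1. Of 15 leukocyte markers, the T and B cell markers Cd3e, Cd8a and Ms4a1 had no count in any library. The summed level of the list ran from 4.35 to 20.8 CPM in KO stimulated, 11.5 to 18.7 in KO control, 6.12 to 197 in het stimulated and 5.56 to 302 in het control libraries. Its highest values were in the libraries of animal 9 (het replicate 4), at 197 CPM stimulated and 302 CPM control, and next in those of animal 1 (het replicate 1). Fibroblast markers such as Col1a1 summed to 978 to 12747 CPM in KO stimulated, 1181 to 5223 in KO control, 33.8 to 4708 in het stimulated and 53.9 to 14702 in het control libraries. Podocyte markers summed to 90.1 to 552 CPM, endothelial markers to 1.14 to 16.1 CPM and tubular markers to 410 to 3660 CPM over the 20 libraries. For the response to LPS+IFNγ in the 16 libraries edgeR called none of the 32 tested genes of these 5 marker lists in either genotype. Over all genes it called 5.76% in KO and 7.15% in het cells. Between genotypes it called no gene (0% of 14630) in either state. All 7 tested leukocyte markers were nevertheless lower in KO than in het cells, with a median log2 fold change of -3.45 in stimulated and -4.03 in control cells. For the 7 fibroblast markers the medians were 1.68 in stimulated and -0.73 in control cells. The part of the marker genes in the results was not tested. In bulk RNA, fewer cells of a type and less RNA per cell cannot be told apart.

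Il15 was higher after LPS+IFNγ in the 8 stimulated libraries that followed their label than in any control, in both genotypes. In KO cells replicates 1 to 5 stood at 9.47, 7.95, 5.25, 2.01 and 14.2 CPM with LPS+IFNγ, against 1.28, 1.41, 1.99, 2.998 and 2.12 CPM in controls. The groups as labelled overlapped through animal 8 alone, whose stimulated library (2.01 CPM) lay below its control (2.998 CPM). The het levels were 18.0, 8.26, 4.69, 11.8 and 1.88 CPM with LPS+IFNγ, against 1.21, 1.59, 1.42, 1.89 and 1.61 CPM in controls. Here 4 stimulated libraries stood above every control, and the library labelled stimulated of animal 4 (1.88 CPM) stood among them.

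With all 20 libraries the log2 fold change of Il15 (LPS+IFNγ over control) was 1.99 ± 0.51 (SE) in KO cells and 2.52 ± 0.52 in het cells. Neither passed edgeR's quasi-likelihood test, with Benjamini-Hochberg adjusted p = 0.321 in KO and 0.105 in het cells. That fit called 0 of 14568 genes (0%) in either genotype, none of the 4 genes among them, while 1307 genes (8.97%) in KO and 1981 (13.6%) in het cells had an unadjusted p under 0.05. DESeq2 called 112 genes (0.673%) in KO and 492 (3.24%) in het cells on the same libraries. Among them were Il15 in KO cells, and Il15, Il15ra and Il18bp in het cells.

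With the 16 libraries edgeR called 843 of 14630 genes (5.76%) in KO cells, 704 of them higher (4.81%) and 139 lower (0.95%). In het cells it called 1046 (7.15%), 829 higher (5.67%) and 217 lower (1.48%). In each genotype 3 of the 4 genes (Il15, Il15ra and Il18bp) rose and Il7 did not pass. With the animal as a fixed block the calls were 1968 in KO and 2724 in het cells.

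**Figure D1:**
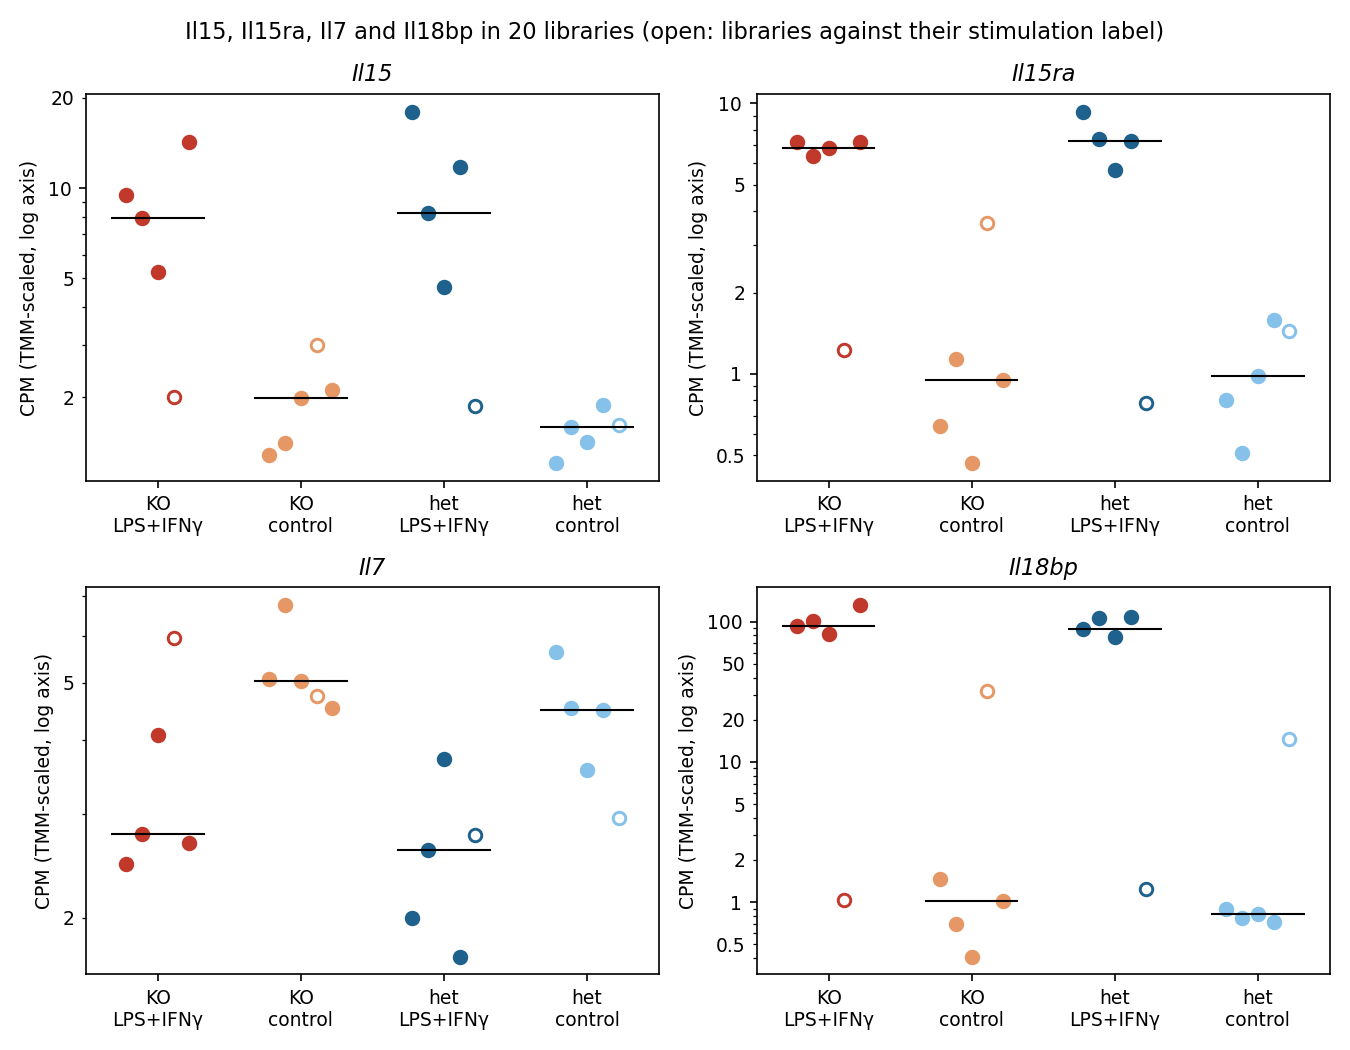
CPM of Il15, Il15ra, Il7 and Il18bp on log axes in the 20 libraries, 5 per group, with the group median as a line. Open circles are the 4 libraries that went against their stimulation label. For Il18bp the filled stimulated points lie between 78.1 and 132 CPM and the filled controls between 0.409 and 1.46 CPM.

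Over the 16 libraries Il15 averaged 9.23 ± 3.77 CPM with LPS+IFNγ and 1.70 ± 0.414 CPM in controls of KO cells (SD, n = 4 each). The log2 fold change was 2.44 ± 0.40, a 5.42-fold rise (edgeR quasi-likelihood, adjusted p = 0.00113). Het cells averaged 10.7 ± 5.67 CPM with LPS+IFNγ and 1.53 ± 0.290 CPM in controls (SD, n = 4 each), a log2 fold change of 2.80 ± 0.40 (6.96-fold, edgeR quasi-likelihood, adjusted p = 0.000325). Among the 4 genes Il15 had the widest spread between stimulated libraries. The highest of the 8 was 3.84 times the lowest, against 1.65 times for Il15ra and 1.69 times for Il18bp.

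The het stimulated libraries with the highest Il15, of animals 1 and 9, had the most leukocyte marker RNA of that group. Their sums over the list were 66.8 and 197 CPM. In KO cells the highest Il15 (14.2 CPM, stimulated replicate 5) stood in the library with the lowest sum of the KO stimulated group, 4.35 CPM. The controls of animals 1 and 9 had sums of 81.3 and 302 CPM. Their Il15 stood at 1.21 and 1.89 CPM, with the other het controls at 1.42 to 1.61 CPM. Without animals 1 and 9, het replicates 2 and 3 were left in each state. Il15 in het cells then rose by 2.11 ± 0.47 on the log2 scale (edgeR quasi-likelihood, adjusted p = 0.028). Leaving out the animals low in Cdh1 (2, 6 and 10) kept KO replicates 1 and 3 stimulated and 1 and 2 in control, and het replicates 1, 3 and 4. The values were then 2.43 ± 0.62 in KO cells, which did not pass (edgeR quasi-likelihood, adjusted p = 0.187), and 2.94 ± 0.51 in het cells (adjusted p = 0.0199). Both exclusions were chosen with these values known and also lowered the number of libraries. The part of these cells in the result was not tested.

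Il15ra, the chain that carries interleukin 15 to the cell surface, varied less than Il15 between stimulated libraries and more between controls. Among the 8 controls that followed their label the highest was 3.39 times the lowest for Il15ra and 1.76 times for Il15. In KO cells it stood at 7.23, 6.38, 6.87, 1.23 and 7.21 CPM with LPS+IFNγ, against 0.641, 1.14, 0.467, 3.62 and 0.948 CPM in controls. Apart from replicate 4, whose values were the other way round, every stimulated library was above every control. Het libraries stood at 9.33, 7.37, 5.66, 7.26 and 0.781 CPM with LPS+IFNγ, against 0.803, 0.510, 0.984, 1.59 and 1.446 CPM in controls. The library labelled stimulated of replicate 5 lay within the control range, and the others lay above it.

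The log2 fold change of Il15ra with all 20 libraries was 2.08 ± 0.63 in KO and 2.50 ± 0.64 in het cells, and neither passed (edgeR quasi-likelihood, adjusted p = 0.321 and 0.105). Over the 16 libraries Il15ra averaged 6.92 ± 0.399 CPM with LPS+IFNγ and 0.798 ± 0.301 CPM in controls of KO cells (SD, n = 4 each), a rise of 3.11 ± 0.35 on the log2 scale or 8.61-fold (edgeR quasi-likelihood, adjusted p = 3.3e-05). In het cells the averages were 7.41 ± 1.502 CPM with LPS+IFNγ and 0.971 ± 0.454 CPM in controls (SD, n = 4 each), a rise of 2.92 ± 0.34 or 7.55-fold (edgeR quasi-likelihood, adjusted p = 5.32e-05). Controls held only 8 to 31 counts of Il15ra per library among those that followed their label, so counting error is part of their spread.

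The ratio of Il15ra to Il15 counts did not separate the states. Over 20 libraries its median was 0.764 with LPS+IFNγ and 0.511 in controls of KO cells, and 0.617 with LPS+IFNγ and 0.698 in controls of het cells. Over the 16 that followed their label it was 0.784 with LPS+IFNγ and 0.484 in controls of KO cells, and 0.755 with LPS+IFNγ and 0.685 in controls of het cells, so the order of the het medians turned. The 4 ranges overlapped, from 0.246 in a KO control to 1.31 in a KO stimulated library.

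Il18bp, the secreted inhibitor of interleukin 18, had the largest fold change of the 4 genes. In KO cells it stood at 92.6, 102, 81.8, 1.04 and 132 CPM with LPS+IFNγ, against 1.46, 0.704, 0.409, 32.2 and 1.02 CPM in controls. The het libraries stood at 88.4, 107, 78.1, 109 and 1.25 CPM with LPS+IFNγ, against 0.893, 0.765, 0.820, 0.716 and 14.6 CPM in controls. The gene was near 1 CPM in every control that followed its label and near 100 CPM in every such stimulated library, with nothing between. The 2 libraries labelled control that carried an induced state, at 32.2 and 14.6 CPM, fell between these levels.

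Over 20 libraries the log2 fold change of Il18bp was 3.52 ± 1.36 in KO and 4.44 ± 1.43 in het cells, and neither passed (edgeR quasi-likelihood, adjusted p = 0.416 and 0.167). Among the 16 libraries the average was 102 ± 21.6 CPM with LPS+IFNγ and 0.898 ± 0.448 CPM in controls of KO cells (SD, n = 4 each). That rise was 6.82 ± 0.30 on the log2 scale, or 113-fold (edgeR quasi-likelihood, adjusted p = 2.87e-09), and ranked 93rd from the top among the 14630 genes tested. In het cells the averages were 95.6 ± 14.9 CPM with LPS+IFNγ and 0.798 ± 0.0758 CPM in controls (SD, n = 4 each), a rise of 6.89 ± 0.30 or 118-fold (edgeR quasi-likelihood, adjusted p = 3.09e-09). The antisense neighbour at its 3′ end, Numa1, differed by 0.06 ± 0.15 in KO and by -0.21 ± 0.15 in het cells, and neither value passed (edgeR quasi-likelihood, adjusted p = 0.912 and 0.45).

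**Figure D2:**
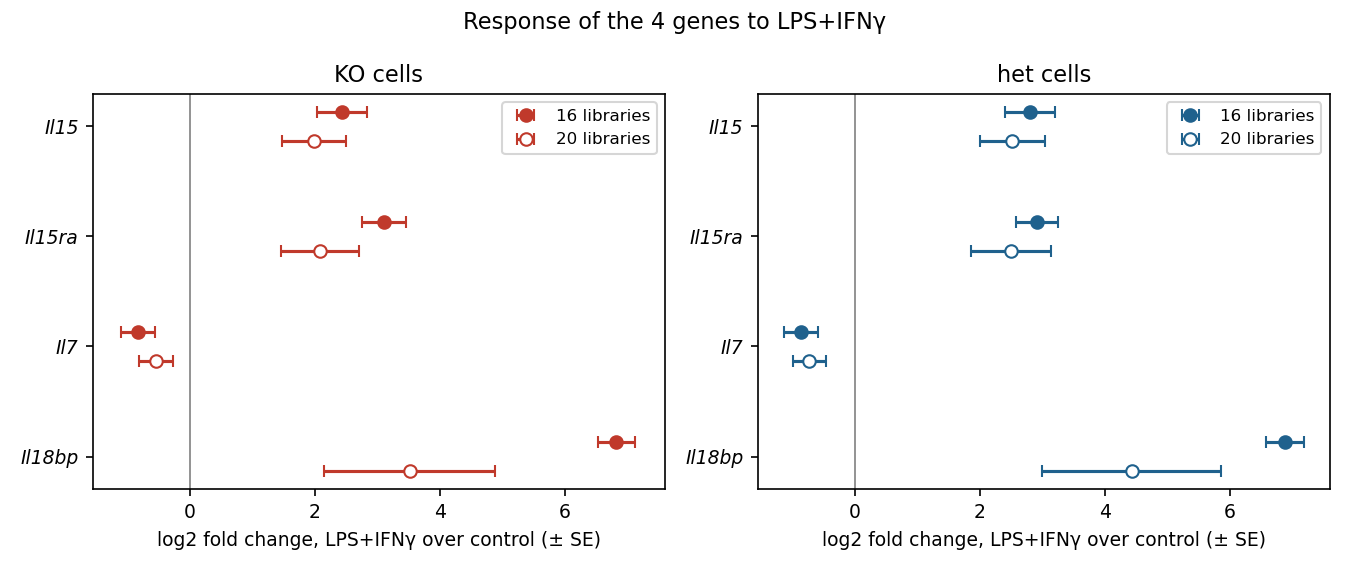
Log2 fold change (LPS+IFNγ over control, ± SE) of the 4 genes in KO cells (left) and het cells (right). Filled points are from the 16 libraries that followed their label and open points from all 20. Il18bp moves most between them, with 6.82 against 3.52 in KO cells.

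The ligand that Il18bp restrains was induced less. Il18 stood at 6.49, 7.95, 3.97, 1.81 and 5.90 CPM with LPS+IFNγ in KO cells, against 2.33, 1.46, 2.34, 3.19 and 1.53 CPM in controls. In het cells Il18 stood at 13.6, 7.26, 4.49, 8.09 and 1.20 CPM with LPS+IFNγ, against 1.21, 2.42, 0.874, 1.43 and 2.89 CPM in controls. Every stimulated library that followed its label was above every such control. With the 16 libraries Il18 rose by 1.66 ± 0.38 in KO cells (edgeR quasi-likelihood, adjusted p = 0.0153) and by 2.49 ± 0.39 in het cells (adjusted p = 0.000708). Over 20 libraries the Il18 values were 1.26 ± 0.51 in KO and 1.97 ± 0.51 in het cells, and neither passed (edgeR quasi-likelihood, adjusted p = 0.436 and 0.112).

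The ratio of Il18bp to Il18 counts (0.5 added to each) separated the states. It was 14.2, 12.8, 20.5, 0.579 and 22.3 with LPS+IFNγ in KO cells, against 0.630, 0.491, 0.185, 10.0 and 0.674 in controls. It was 6.47, 14.7, 17.3, 13.4 and 1.04 with LPS+IFNγ in het cells, against 0.745, 0.325, 0.939, 0.509 and 5 in controls. Among libraries that followed their label every stimulated one had more Il18bp than Il18 counts and every control had fewer. The ratio compares counts, not molecules, since transcript length was not corrected for, and it was given no test.

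**Figure D3:**
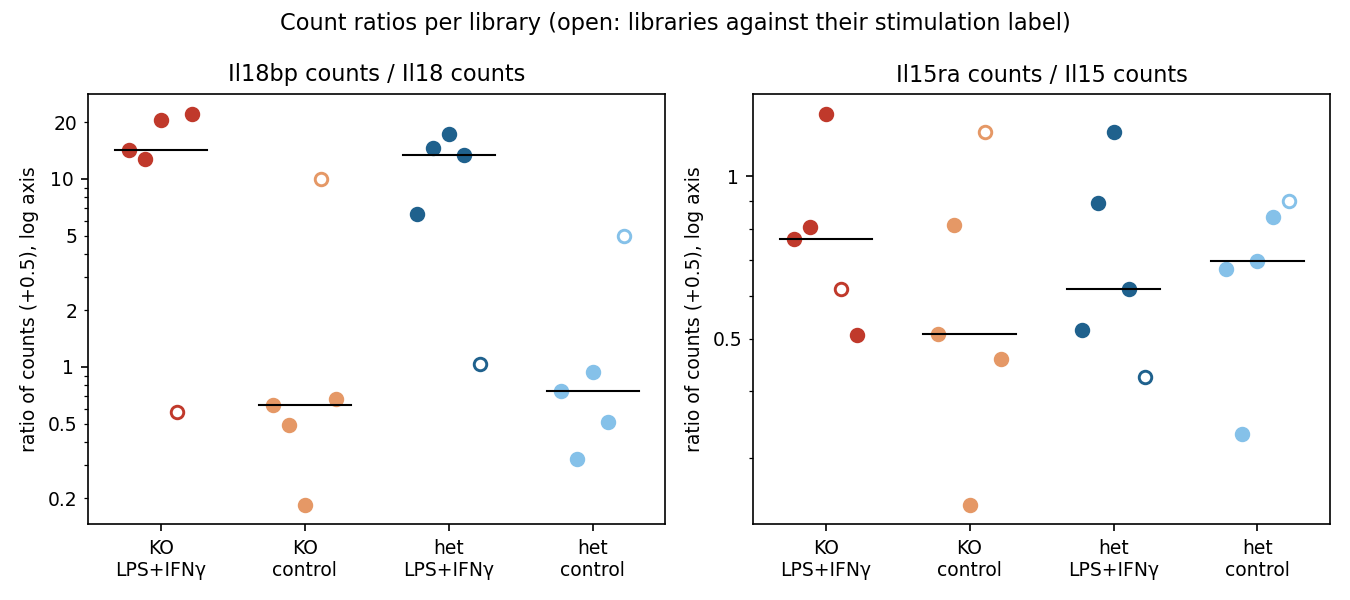
Ratio of Il18bp to Il18 counts (left) and of Il15ra to Il15 counts (right) in each library, with 0.5 added to every count, on log axes. Lines are group medians, and open circles are the 4 libraries against their stimulation label. The Il18bp ratio is 6.47 to 22.3 in the filled stimulated points and 0.185 to 0.939 in the filled controls, while the Il15ra ratios overlap.

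The other genes of the interleukin 18 axis included the enzymes that process and release it. With 16 libraries 6 of the 8 tested genes of this list, Il18bp and Il18 included, rose in each genotype and none fell. Over all genes 4.81% were called higher in KO and 5.67% in het cells. The median log2 fold change of the list was 2.24 in KO and 2.47 in het cells, against -0.01 and -0.03 over all genes tested. Casp1, which cleaves the interleukin 18 precursor, rose by 3.01 ± 0.37 in KO and 2.95 ± 0.36 in het cells. Gsdmd, whose product forms the membrane pores of pyroptosis, rose by 3.45 ± 0.40 in KO and 3.23 ± 0.39 in het cells. Pycard, the adaptor between inflammasome sensors and caspase-1, rose by 2.25 ± 0.60 in KO and 2.10 ± 0.59 in het cells (edgeR quasi-likelihood, adjusted p = 0.0406 and 0.0466). Myd88, the adaptor of the interleukin 18 receptor and of Toll-like receptors, rose by 1.18 ± 0.20 in KO and 0.82 ± 0.20 in het cells.

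The receptor chains did not pass. Il18rap stood at 2.23 ± 0.81 in KO and 2.45 ± 0.81 in het cells on the log2 fold scale (edgeR quasi-likelihood, adjusted p = 0.152 and 0.0915). Il18r1 stood at 1.12 ± 1.73 in KO and 0.82 ± 1.70 in het cells (edgeR quasi-likelihood, adjusted p = 0.847 and 0.836). The sensor gene Nlrp3 was too low to be tested, with at most 0.536 CPM stimulated and 0 counts in the controls of KO cells. In het cells it had 0.303, 0.277, 0 and 6.24 CPM in the stimulated libraries that followed their label and at most 0.460 CPM in controls. The 6.24 CPM was in animal 9, the richest in leukocyte marker RNA, and the other 3 stood within the control range. With all 20 libraries edgeR called none of the 8 genes in either genotype.

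Il7 had a lower mean with LPS+IFNγ than in controls in both genotypes. In KO cells it stood at 2.47, 2.77, 4.08, 5.95 and 2.68 CPM with LPS+IFNγ, against 5.07, 6.77, 5.02, 4.75 and 4.52 CPM in controls. The library labelled stimulated of animal 8 (5.95 CPM) lay within the control range, and the other 4 lay below every KO control. Il7 in het cells stood at 2.00, 2.60, 3.71, 1.72 and 2.76 CPM with LPS+IFNγ, against 5.62, 4.53, 3.55, 4.50 and 2.95 CPM in controls. These groups overlapped through stimulated replicate 3 (3.71 CPM) and control replicates 3 (3.55 CPM) and 5 (2.95 CPM).

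The log2 fold change of Il7 was -0.54 ± 0.27 in KO and -0.72 ± 0.27 in het cells over 20 libraries, and neither passed (edgeR quasi-likelihood, adjusted p = 0.579 and 0.23). Il7 averaged 2.9995 ± 0.730 CPM with LPS+IFNγ and 5.35 ± 0.981 CPM in controls of KO cells over the 16 libraries (SD, n = 4 each), a log2 fold change of -0.83 ± 0.27 (edgeR quasi-likelihood, adjusted p = 0.102). In het cells the averages were 2.51 ± 0.883 CPM with LPS+IFNγ and 4.55 ± 0.847 CPM in controls (SD, n = 4 each), a log2 fold change of -0.86 ± 0.27 (edgeR quasi-likelihood, adjusted p = 0.0769). Neither passed.

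Whether the lower Il7 level was called depended on the fit. With the animal as a random block (limma-voom, 16 libraries) Il7 fell by 0.74 ± 0.19 in KO (adjusted p = 0.0166) and by 1.03 ± 0.21 in het cells (adjusted p = 0.00376). With the animal as a fixed block in edgeR it fell by 1.03 ± 0.27 in het cells (adjusted p = 0.0314), and the KO value of -0.70 ± 0.26 did not pass (adjusted p = 0.126). DESeq2 on the 16 libraries called it in both genotypes (adjusted p = 0.0215 in KO and 0.0169 in het cells), where it called 7.77% of genes in KO and 9.71% in het cells. Leaving out the 2 animals rich in leukocyte markers (1 and 9) kept het replicates 2 and 3 in each state. The het value was then -0.34 ± 0.32 (edgeR quasi-likelihood, adjusted p = 0.679), while the KO value of -0.83 ± 0.23 passed (adjusted p = 0.0363).

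**Figure D4:**
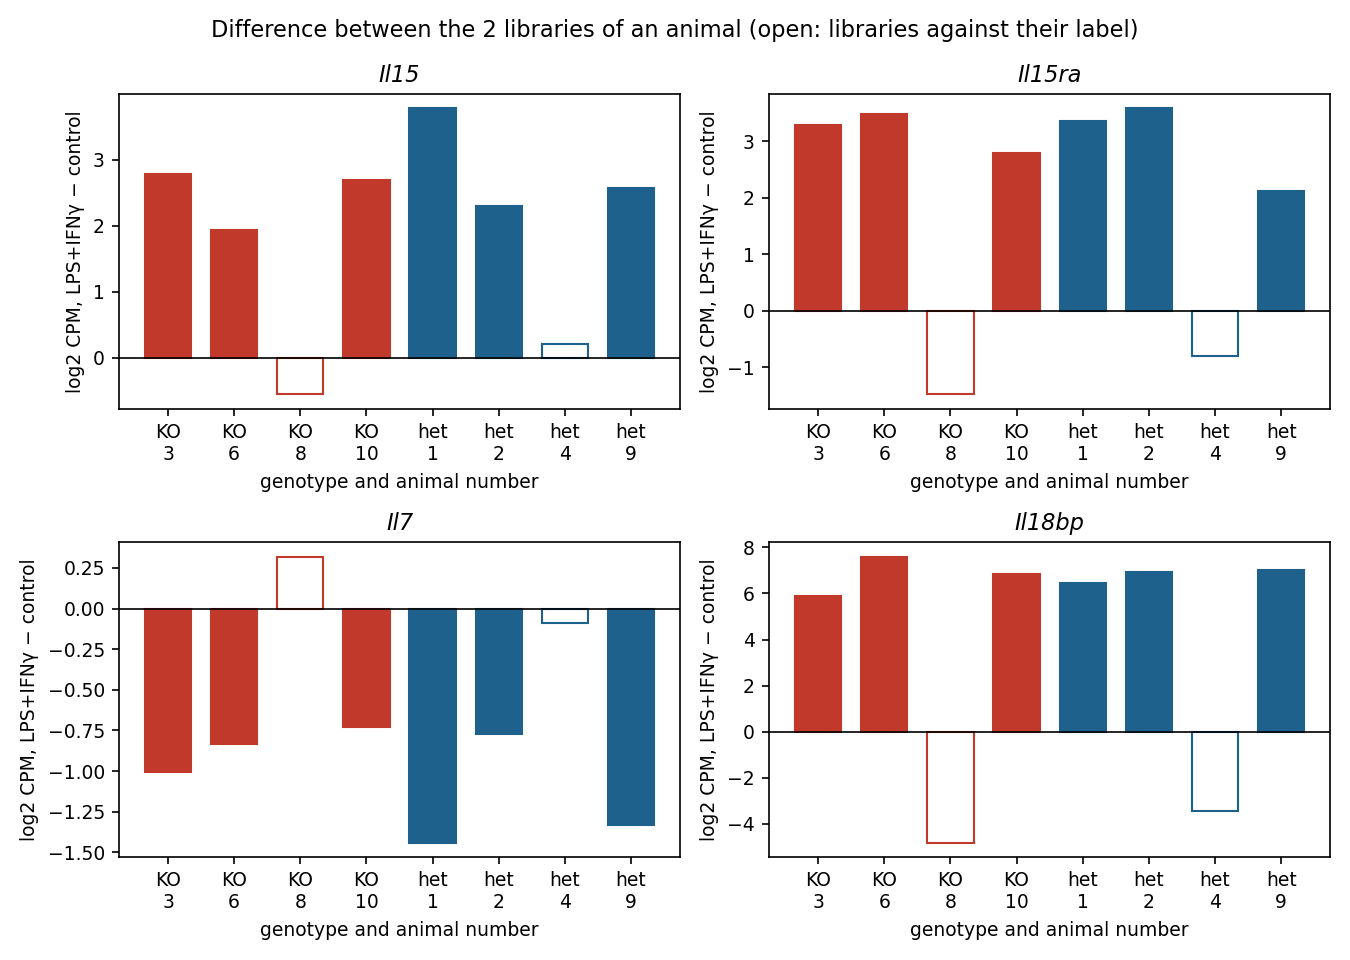
Log2 CPM with LPS+IFNγ minus log2 CPM in control for the 8 animals with both states in 1 genotype, as bars by genotype and animal number. Open bars are the 2 animals whose libraries went against their label. In the other 6 animals Il15, Il15ra and Il18bp are above 0 and Il7 is below 0.

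Within animals the 4 genes kept 1 direction each. In the 6 animals with both states and libraries that followed their label (3, 6 and 10 KO; 1, 2 and 9 het), the log2 difference of stimulated minus control was 1.94 to 3.78 for Il15 and 2.12 to 3.58 for Il15ra. It was 5.88 to 7.60 for Il18bp and -1.44 to -0.73 for Il7. In animal 8 (KO) and animal 4 (het) it was -4.81 and -3.43 for Il18bp and -1.47 and -0.80 for Il15ra, the opposite sign. For Il15 it was -0.55 in animal 8 and 0.20 in animal 4, and for Il7 it was 0.32 in animal 8 and -0.09 in animal 4.

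The 2 libraries labelled control that carried an induced state were compared with the distance between the mean log2 levels of controls and stimulated libraries of their genotype. For Il18bp they lay 75.7% (KO replicate 4) and 59.8% (het replicate 5) of the way to the stimulated level, near the 74.0% and 66.3% of Nos2. For Il15ra they lay at 69.7% and 21.5%, and for Il15 at 35.1% and 3.47%. For Il7 they lay at 18.5% and 67.8%, where the whole distance was under 1 log2 unit. Il18bp thus followed the check genes in both libraries, and the Il15 level of het replicate 5 (1.61 CPM) was that of a control.

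Il7 has an antisense neighbour that moved the other way. Gm16685 overlaps the start of Il7 on the opposite strand in the annotation used for names (GENCODE M21), and has no described role here. It stood at 11.02, 13.2, 11.6, 0.712 and 18.4 CPM with LPS+IFNγ in KO cells, against 0.349, 0.866, 0.292, 7.87 and 0.0729 CPM in controls. The het levels of Gm16685 were 23.2, 12.9, 8.99, 25.6 and 0.208 CPM with LPS+IFNγ, against 2.95, 0.255, 0.0546, 1.59 and 3.39 CPM in controls. Every stimulated library that followed its label was above every control of either kind.

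Gm16685 rose by 5.03 ± 0.88 in KO (edgeR quasi-likelihood, adjusted p = 0.00221) and by 3.83 ± 0.80 in het cells (adjusted p = 0.00826) over the 16 libraries. Over 20 libraries the values were 2.54 ± 1.17 in KO and 3.09 ± 1.19 in het cells, and neither passed (edgeR quasi-likelihood, adjusted p = 0.531 and 0.254). The library kit marks strand, but no source used here gives the strand setting of the counting. Reads of Gm16685 and of the first part of Il7 may therefore not be told apart, and their part in either level was not tested.

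**Figure D5:**
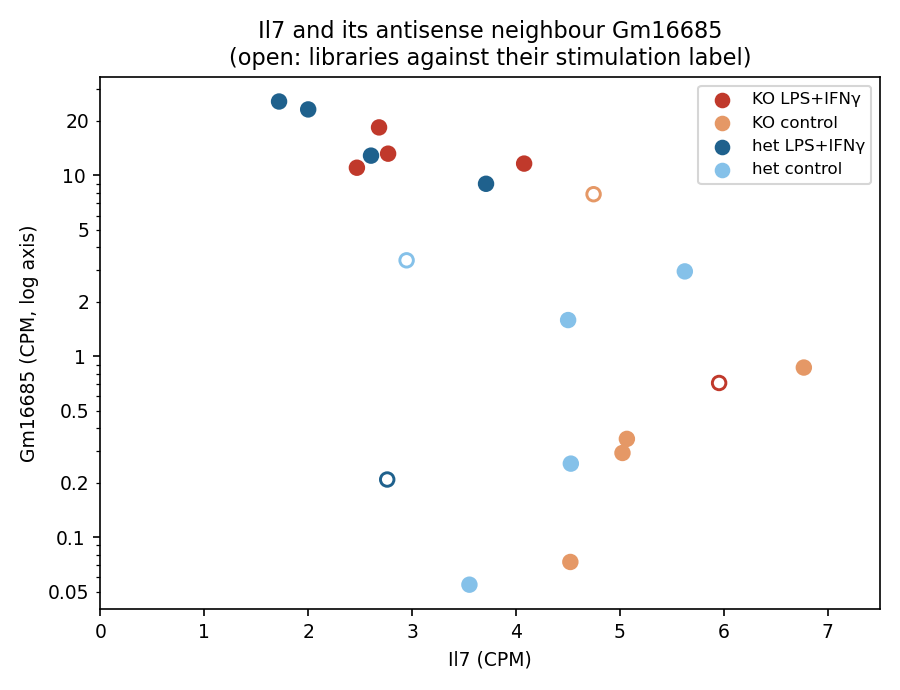
Il7 (CPM, horizontal) and Gm16685 (CPM, vertical log axis) in the 20 libraries, coloured by group, with open circles for the 4 libraries against their label. The filled stimulated points lie at the upper left, with Il7 at 1.72 to 4.08 CPM and Gm16685 at 8.99 to 25.6 CPM.

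No difference between KO and het cells passed for any of the 4 genes, in either state or in the response. These comparisons rest on genotype labels that the counts of Ptprz1 did not check. Animal 5 is given for KO control replicate 2 and het stimulated replicate 3, and animal 7 for KO stimulated and het control replicate 3. A genotype label or an animal number of these libraries may therefore be wrong. Across all genes edgeR called 0% of 14568 genes in each of these 3 comparisons over 20 libraries, with 366 (2.51%, stimulated), 499 (3.43%, control) and 138 (0.947%, difference of responses) at an unadjusted p under 0.05. DESeq2 called 4 (0.0148%), 3 (0.0111%) and 1 (0.0037%). In stimulated cells the log2 fold change of KO over het in the 16 libraries was -0.21 ± 0.37 for Il15, -0.10 ± 0.31 for Il15ra, 0.26 ± 0.27 for Il7 and 0.09 ± 0.22 for Il18bp. With all 20 libraries the values were -0.20 ± 0.49, -0.07 ± 0.59, 0.49 ± 0.27 and 0.09 ± 1.22 in the same order.

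In control cells KO over het was 0.15 ± 0.39 for Il15, -0.28 ± 0.34 for Il15ra, 0.23 ± 0.27 for Il7 and 0.16 ± 0.30 for Il18bp in the 16 libraries. Over 20 libraries the control values were 0.34 ± 0.51, 0.35 ± 0.62, 0.30 ± 0.27 and 1.01 ± 1.30 in that order. The SE of Il18bp in controls was 0.30 in place of 1.30 once the libraries against their label were left out. The response of KO cells minus that of het cells in the 16 libraries was -0.36 ± 0.54 for Il15, 0.19 ± 0.46 for Il15ra, 0.03 ± 0.38 for Il7 and -0.06 ± 0.37 for Il18bp. An interval of 2 SE either way reaches past 1 log2 unit for Il15 and Il15ra and stays within it for Il7 and Il18bp, so equal responses are not shown.

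No receptor or signalling gene that Il15 and Il7 share passed the test. Of the 7 tested genes of the interleukin 15 list only Il15 and Il15ra rose in the 16 libraries. Of the 7 tested genes of the interleukin 7 list none passed in either genotype. Over all genes 5.76% were called in KO and 7.15% in het cells. Jak1, the kinase of the cytokine-specific receptor chains, stood at 0.42 ± 0.13 in KO and 0.41 ± 0.13 in het cells (edgeR quasi-likelihood, adjusted p = 0.089 and 0.0851). Stat5a stood at 0.41 ± 0.22 in KO and 0.23 ± 0.22 in het cells, and Stat5b at 0.11 ± 0.11 in KO and 0.30 ± 0.11 in het cells. Jak3, the kinase of the common gamma chain, stood at -0.29 ± 0.44 in KO and -0.44 ± 0.44 in het cells.

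The common gamma chain gene Il2rg averaged 0.421 ± 0.355 CPM stimulated and 0.291 ± 0.151 CPM in controls of KO cells, and 1.31 ± 1.48 CPM stimulated and 0.275 ± 0.270 CPM in controls of het cells (SD, n = 4 each). Its log2 fold change was 0.51 ± 0.94 in KO and 2.20 ± 0.92 in het cells, and neither passed (edgeR quasi-likelihood, adjusted p = 0.882 and 0.189). Its highest value, 3.50 CPM, was in the stimulated library of animal 9, the one richest in leukocyte marker RNA among stimulated libraries. The lymphocyte receptor chains Il2rb and Il7r were too low to be tested, as was Tslp, the ligand that shares Il7r. Crlf2, the other chain of the Tslp receptor, stood at 0.33 ± 0.20 in KO and 0.38 ± 0.20 in het cells and did not pass (edgeR quasi-likelihood, adjusted p = 0.497 and 0.312).

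Of 15 other cytokines that act on lymphocytes, 7 were tested and 2 rose in each genotype in the 16 libraries, beside 4.81% of all genes called higher in KO and 5.67% in het cells. Tnfsf13b, the B cell survival factor BAFF, stood at 0.632, 0.843, 3.35 and 2.21 CPM with LPS+IFNγ in KO cells that followed their label and at most 0.0729 CPM in their controls. Its het levels were 0.667, 1.16, 0.0651 and 0.510 CPM with LPS+IFNγ and at most 0.0893 CPM in controls, so 1 stimulated het library was at control level. Il6, a pleiotropic cytokine, stood at 1.03, 1.57, 2.23 and 4.77 CPM with LPS+IFNγ in those KO cells and at most 0.219 CPM in their controls. In het cells it stood at 6.30, 1.83, 0.521 and 9.81 CPM with LPS+IFNγ and at most 0.164 CPM in controls, highest in animals 1 and 9. Il12b, which encodes a subunit of interleukins 12 and 23, had 0 counts in all 10 controls and 0 to 60 counts in stimulated libraries, and did not pass (edgeR quasi-likelihood, adjusted p = 0.129 in KO and 0.0822 in het cells). Flt3l, a growth factor of dendritic cell precursors, stood at 1.20 ± 0.34 in KO and 0.97 ± 0.34 in het cells on the log2 fold scale and did not pass (edgeR quasi-likelihood, adjusted p = 0.0558 and 0.111).

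Among 12 genes of the LPS and IFNγ pathways, 8 rose in KO and 7 in het cells and none fell in the 16 libraries, where 4.81% of all genes were called higher in KO and 5.67% in het cells. Irf1, a transcription factor that IFNγ induces, rose by 4.98 ± 0.32 in KO and 5.01 ± 0.32 in het cells. Irf8, a transcription factor of myeloid cells, rose by 6.51 ± 0.99 in KO and 4.05 ± 0.84 in het cells. Stat2 and Irf9, partners in the complex that binds interferon-stimulated response elements, rose by 3.81 ± 0.22 and 2.29 ± 0.23 in KO and by 3.87 ± 0.22 and 2.15 ± 0.23 in het cells. With all 20 libraries edgeR called none of these genes.

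Genes with profiles most like the 4 were named by the root mean square difference between centred log2 CPM over the 20 libraries, among 11964 candidates. For Il15 they were Znfx1 (0.359), Cyp4v3 (0.366) and Pnp (0.395), and for Il15ra they were Nampt (0.351), Psme1 (0.418) and Parp11 (0.424). For Il18bp they were Gbp7 (0.455), Parp14 (0.502) and Oasl2 (0.516). For Il7 they were Pcyt2 (0.313), Wwc2 (0.327) and Fads3 (0.328), set against an SD of 0.53 for Il7 itself, so the likeness of Il7 to its nearest genes was weak. These values describe profiles that share libraries, depth and stimulation.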

How the data were processed

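The authors deposited a table of estimated counts per gene, already whole numbers, so rounding changed 0 values. Salmon 1.10.2 and DESeq2 1.45.3 are named in the submitters' processing notes, as are R 4.4.1, FastQC 0.11.9 and GRCm39, with no word on what each did. Of 55891 gene IDs, 51425 (92%) were given a symbol. Genes that passed edgeR's filterByExpr were fitted with TMM factors (0.939 to 1.13) and 1 mean for each of the 4 groups over 20 libraries. Tests were edgeR 4.0.16 quasi-likelihood tests (robust, R 4.3.3) with Benjamini-Hochberg adjustment over all genes tested and a threshold of 0.05. A run on simulated counts came first. It drew libraries independently, without animal pairs or libraries against their label, so it does not check how the test handles these. The SE printed with an edgeR log2 fold change is the size of that change divided by the square root of its F statistic. It is thus derived from the test and approximate. CPM uses the TMM factors, and log2 CPM a prior count of 2. DESeq2 1.42.0 (Wald test, genes with an adjusted p of NA left out) and limma 3.58.1 (voom) were alternatives, with other scalings, filters, replicate blocks and sets of libraries.

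The labels' animal numbers pair libraries of both states, 8 pairs within 1 genotype and 2 across genotypes. Over these 10 pairs the correlation of deviations from group means was -0.298 to 0.623, above 0.1 in 8, and limma estimated a within-animal correlation of 0.458 over 20 and 0.577 over 16 libraries.

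The 4 genes, the 11 gene lists (95 symbols) and the 4 libraries left out were chosen with earlier results of these data known. The genes named were the 4, the whole interleukin 15, 7 and 18 lists, up to 4 genes of every other list by lowest p in KO cells over 20 libraries, and 3 genes of most like profile each. Gm16685, Numa1 and the marker genes named beside a result were picked after their values were seen. P-values measure the spread between libraries. Results on 1 item withheld for evaluation are not reported here.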

Additional observations from a re-analysis of the deposited data

Results flagged for a closer look

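In 6 of the 16 groups of 5 libraries (4 genes in 4 groups) 1 library stood apart from the other 4, by a gap test whose chance rate is about 1 in 20. For 5 of the 6 it was a library whose Nos2, Gbp2 and Tap1 went against its stimulation label. Il15ra was lowest at 1.23 CPM in the KO library labelled stimulated, replicate 4, and highest at 3.62 CPM in the KO control of that replicate. Il18bp was highest at 32.2 CPM in the same KO control. In het cells it was lowest at 1.25 CPM in the library labelled stimulated, replicate 5, and highest at 14.6 CPM in the control of that replicate. The sixth was KO control replicate 2, with Il7 at 6.77 CPM against 4.52 to 5.07 CPM in the other KO controls, and that library followed its label.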

How the results depend on the processing

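Scaling by DESeq2's size factors or by totals alone, both other filters on low counts, limma-voom and the fit of only the groups compared changed no call among the 20 libraries, and neither did any replicate block there. The calls changed with DESeq2 and with leaving out the 4 libraries that went against their stimulation label. The count of genes called in KO cells was 112 by DESeq2 on 20 libraries, 843 by edgeR and 1300 by DESeq2 on 16, 1968 with the animal as a fixed replicate block on 16 and 2057 with it as a random one. The het counts were 492, 1046, 1625, 2724 and 3142 in the same order. Without animals 5 and 7 as well, edgeR called 462 genes in KO and 604 in het cells. Without animals 1 and 9 (added after seeing the data) it called 1960 in KO and 623 in het cells, and without animals 2, 6 and 10 (likewise) 159 in KO and 424 in het cells. The first of these left het replicates 2 and 3 in each state. The second left KO replicates 1 and 3 stimulated and 1 and 2 in control. Between genotypes DESeq2 called 4 genes in stimulated cells, 3 in controls and 1 in the difference of responses on 20 libraries, and 1 in stimulated and 1 in control cells on 16, where edgeR called none.

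Responses below are log2 fold changes that passed where the fit of 20 libraries had not. DESeq2 on 20 libraries gave 1.98 for Il15 in KO cells, and 2.54 for Il15, 2.51 for Il15ra and 4.44 for Il18bp in het cells. The 16 libraries in edgeR gave 2.44, 3.11 and 6.82 for Il15, Il15ra and Il18bp in KO cells and 2.80, 2.92 and 6.89 in het cells. DESeq2 on them gave 2.44, 3.11 and 6.83 in KO and 2.81, 2.92 and 6.89 in het cells. With the fixed replicate block the values were 2.31, 3.17 and 6.77 in KO and 2.74, 2.94 and 6.92 in het cells, and with the random block 2.27, 3.04 and 6.90 in KO and 2.76, 3.06 and 6.82 in het cells. Less animals 5 and 7 they were 2.53, 3.32 and 6.79 in KO and 3.02, 3.04 and 6.99 in het cells. Less animals 1 and 9 they were 2.45, 3.11 and 6.83 in KO and 2.11, 3.11 and 6.86 in het cells. Less animals 2, 6 and 10 the passing values were 2.96 and 6.32 for Il15ra and Il18bp in KO cells and 2.94, 2.73 and 6.82 for all 3 genes in het cells. Il7 passed over 16 libraries in KO cells by the random block (-0.74), by DESeq2 (-0.85) and without animals 1 and 9 (-0.83). In het cells it passed by the fixed block (-1.03), the random block (-1.03), DESeq2 (-0.87) and without animals 5 and 7 (-1.21). The cause of these differences was not tested.

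Genotype values that passed no test changed sign in places. In stimulated cells Il15 was 0.51, Il15ra 0.0836 and Il7 -0.0767 less animals 1 and 9, and Il18bp was -0.0771 less animals 2, 6 and 10. Il15ra there was 0.16 by limma-voom, and 0.20 (20 libraries) and 0.00708 (16) with the random block. In controls Il15 was -0.14 less animals 2, 6 and 10, and Il18bp was -0.0158 with the random block on 16. Il15ra in controls was -0.28 on 16 libraries, -0.31 by DESeq2 on them, -0.48 less animals 5 and 7 and -0.31 less animals 2, 6 and 10. The difference of responses of Il15ra was 0.12 by limma-voom, 0.0355 with the animal as a fixed and 0.0387 as a random block, and 0.0513 with the title number as a block. On 16 libraries it was 0.19 in edgeR, 0.23 with the fixed block, 0.19 by DESeq2, 0.28 less animals 5 and 7 and 0.23 less animals 2, 6 and 10. Less animals 1 and 9 the difference was 0.34 for Il15 and -0.49 for Il7. It was -0.000109 for Il7 less animals 2, 6 and 10 and 0.0827 for Il18bp with the random block on 16.

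Leaving out 1 library at a time, from 20 or from 16, gave 0 to 1143 genes called in KO and 0 to 1123 in het cells. From 20 libraries the count was above 0 without the library labelled stimulated of KO replicate 4 (152 KO, 123 het) or of het replicate 5 (744 het). Without the first, Il15 passed at 2.22 in KO (edgeR, adjusted p = 0.0379) and 2.52 in het cells (adjusted p = 0.0464). Without the second, Il15 and Il15ra passed at 2.78 in het cells (edgeR, adjusted p = 0.0117 and 0.0146). From 16, Il15, Il15ra and Il18bp passed in 16 of 16 fits in each genotype, and Il7 passed in 1, in het cells without stimulated replicate 3 (-1.11, edgeR, adjusted p = 0.0234). Over both sets the responses ran from 1.64 to 2.63 for Il15, 1.85 to 3.32 for Il15ra, 3.19 to 7.18 for Il18bp and -1.02 to -0.44 for Il7 in KO cells. In het cells they ran from 2.09 to 3.05, 2.28 to 3.25, 4.17 to 6.97 and -1.11 to -0.60. KO over het ran from -0.53 to 0.22, -0.37 to 0.18, -0.23 to 0.40 and 0.08 to 0.66 in stimulated cells and from 0.02 to 0.45, -0.50 to 0.57, -1.98 to 3.14 and 0.11 to 0.42 in controls. The difference of responses ran from -0.88 to 0.0137, -0.70 to 0.39, -3.06 to 2.07 and -0.16 to 0.35 in that order. Depth limits Il15ra and Il18bp, with 8 to 31 and 7 to 25 counts in the controls that followed their label.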
